A study of Mus musculus with 2 samples.

Results

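The genes examined were those of the mouse major histocompatibility complex (MHC) and of antigen presentation. They were chosen by name: the protein-coding genes of GENCODE M21 whose names start with H2-, plus B2m, Tap1, Tap2, Tapbp, Psmb8, Psmb9, Cd74, Ciita and Nlrc5. The rule gave 43 of 21670 protein-coding genes (chromosome Y, the mitochondrial genome and unplaced sequence left out). By name, 24 were class I H2 genes, 9 were class II H2 genes, 9 lay outside the H2- names, and 1, H2-Ke6, carries the name for its place in the MHC and codes for a hydroxysteroid dehydrogenase. DNase-seq, which reads where the enzyme DNase I cuts accessible DNA, had been run on 2 libraries of kidney from female B6CASTF1/J mice aged 8 to 10 months, biological replicates 1 and 2 of a single group. B6CASTF1/J is the first-generation cross of C57BL/6J and CAST/EiJ, so every nucleus carries an MHC of each parent, while coordinates are those of the C57BL/6J genome. The labels list separate tissue samples under a shared donor entry and do not say whether the tissue came from different animals. The spread between the libraries may therefore be technical. There was no other group, so no test across samples was made.

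Class I molecules carry peptides made inside a cell to its surface, where CD8 T cells read them, and nearly all nucleated cells make them. Their heavy chains pair with beta-2-microglobulin, coded by B2m, and receive peptides that the immunoproteasome cuts and the TAP transporter brings into the endoplasmic reticulum. Class II molecules show peptides from the endosome to CD4 T cells and are made mainly by B cells, dendritic cells and macrophages, and by other cells under interferon gamma. The promoters of both classes hold a module of X and Y boxes, on which RFX, CREB and NF-Y factors assemble and recruit NLRC5 at class I genes and CIITA at class II genes. Kidney is mostly nephron epithelium with endothelium and resident leukocytes. In such tissue a low signal from few cells and a low signal in all cells cannot be told apart.

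Values are the peak signal that the authors deposited with the longer of their peak lists, in the unit they chose, given for replicate 1 and then replicate 2. Peaks of both libraries that overlapped by at least 1 base were joined into a shared region with the highest signal of each library, which gave 96735 regions. A promoter was called open where a shared region overlapped the 500 bases on either side of the start of any protein-coding transcript of the gene. Starts of its non-coding transcripts were not used, and start means a protein-coding one from here on. The longer lists held 137060 and 124976 peaks, and the median peak signal was 0.744 and 0.800. All signals were whole multiples of a step, and if a step is a single tag, the libraries held about 120.9 and 119.9 M tags (M, mega). This depth is an inference from the values. Under it the B2m peak of replicate 1 stood for 730 tags, with an exact 95% Poisson interval of 678 to 785, and the Ciita peak for 53 tags, with an interval of 39.7 to 69.3. These intervals cover counting error only.

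The promoter regions on which the results turn are shown from the 5′ to the 3′ end on the strand of the gene, in GRCm38.p6 (mm10), from the deposited coordinates and the reference genome. Capitals mark the bases that lay in footprints of both libraries. A footprint is a short stretch inside a peak that was cut less than its surroundings, as called by the authors. The classical class I genes H2-K1 and H2-D1 come first, then their light chain gene B2m, the start shared by Tap1 and Psmb9 (on the strand of Tap1), the regulator Nlrc5 and H2-DMa, the class II gene with the strongest region. H2-Aa and H2-Eb1, which code for classical class II chains, were added after their values were seen.
H2-K1, chr17:34000261-34000480, minus strand: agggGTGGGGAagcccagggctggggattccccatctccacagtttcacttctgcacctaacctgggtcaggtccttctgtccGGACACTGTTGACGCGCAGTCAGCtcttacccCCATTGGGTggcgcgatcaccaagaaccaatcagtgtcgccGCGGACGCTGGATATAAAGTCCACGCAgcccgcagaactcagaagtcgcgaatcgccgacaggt
H2-D1, chr17:35262901-35263100, plus strand: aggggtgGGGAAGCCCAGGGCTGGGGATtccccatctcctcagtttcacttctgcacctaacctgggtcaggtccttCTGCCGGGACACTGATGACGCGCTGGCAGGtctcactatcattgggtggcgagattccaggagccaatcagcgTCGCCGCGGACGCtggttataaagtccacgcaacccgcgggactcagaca
B2m, chr2:122147521-122147740, plus strand: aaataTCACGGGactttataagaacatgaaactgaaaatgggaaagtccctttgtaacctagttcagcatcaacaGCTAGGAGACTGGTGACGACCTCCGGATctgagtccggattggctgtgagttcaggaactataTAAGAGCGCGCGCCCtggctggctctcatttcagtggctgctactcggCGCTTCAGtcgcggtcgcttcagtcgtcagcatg
Tap1 and Psmb9, chr17:34187301-34187560, plus strand: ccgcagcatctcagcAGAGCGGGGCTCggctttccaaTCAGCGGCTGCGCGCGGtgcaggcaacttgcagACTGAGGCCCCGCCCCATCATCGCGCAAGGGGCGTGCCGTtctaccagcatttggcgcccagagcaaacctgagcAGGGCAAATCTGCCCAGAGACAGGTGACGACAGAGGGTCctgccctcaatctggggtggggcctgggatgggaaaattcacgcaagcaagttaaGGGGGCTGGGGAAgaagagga
Nlrc5, chr8:94434201-94434460, plus strand: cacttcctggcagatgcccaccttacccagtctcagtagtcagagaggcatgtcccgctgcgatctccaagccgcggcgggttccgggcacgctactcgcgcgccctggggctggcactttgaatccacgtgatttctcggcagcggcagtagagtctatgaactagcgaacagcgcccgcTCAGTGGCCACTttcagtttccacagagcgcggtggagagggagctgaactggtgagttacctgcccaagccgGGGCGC
H2-DMa, chr17:34135321-34135600, plus strand: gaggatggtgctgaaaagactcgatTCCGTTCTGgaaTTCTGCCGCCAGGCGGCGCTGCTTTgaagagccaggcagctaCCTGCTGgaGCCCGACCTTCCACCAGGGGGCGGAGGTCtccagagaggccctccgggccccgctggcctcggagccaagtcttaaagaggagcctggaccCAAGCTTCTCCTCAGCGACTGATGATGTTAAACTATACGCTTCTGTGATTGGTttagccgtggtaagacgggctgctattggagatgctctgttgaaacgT
H2-Aa, chr17:34287781-34288000, minus strand: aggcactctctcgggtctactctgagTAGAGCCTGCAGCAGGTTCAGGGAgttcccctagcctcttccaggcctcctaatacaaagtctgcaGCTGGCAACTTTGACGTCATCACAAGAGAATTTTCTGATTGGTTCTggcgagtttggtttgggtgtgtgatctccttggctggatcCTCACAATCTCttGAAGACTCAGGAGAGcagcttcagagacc
H2-Eb1, chr17:34305681-34305900, plus strand: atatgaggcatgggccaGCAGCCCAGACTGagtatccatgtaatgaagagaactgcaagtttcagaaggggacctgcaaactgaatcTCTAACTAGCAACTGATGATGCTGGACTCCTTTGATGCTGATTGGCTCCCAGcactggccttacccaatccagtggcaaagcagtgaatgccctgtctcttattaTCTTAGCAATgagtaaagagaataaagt

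Of the 43 genes, 27 had an open promoter, against 63.0% of all protein-coding genes, so the genes as a whole were open about as often as the genome. The 3 groups did not share this figure. All 9 genes outside the H2- names were open, 6 of 9 class II genes were open, and 11 of 24 class I genes were open. Among the class I genes the H2-M genes, which lie at the far end of the complex, were open in 1 of 12 cases, and the others in 10 of 12. A footprint of both libraries lay in the promoter of 24 of the 43 genes, against 58.3% of all genes. In the shorter, stricter peak lists 25 of the 43 were open, against 58.9% of all genes. Bases that the authors list at a false discovery rate (FDR) of at most 0.05 in both libraries lay in 27 of the 43 promoters, against 63.9%. The open promoters had a median signal of 4.96 at the members and 4.78 over all 13643 open genes. The median was 3.20 for class I, 3.69 for class II and 5.43 for the 9 other genes. These medians are per gene, and the region that Tap1 and Psmb9 share enters under both names. Counted a single time, it would leave the medians of the members and of the 9 other genes lower. Their order against all genes is therefore not firm. The order of the class medians is not firm: in the shorter lists it was 4.22 for class I and 3.69 for class II.

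**Figure D1:**
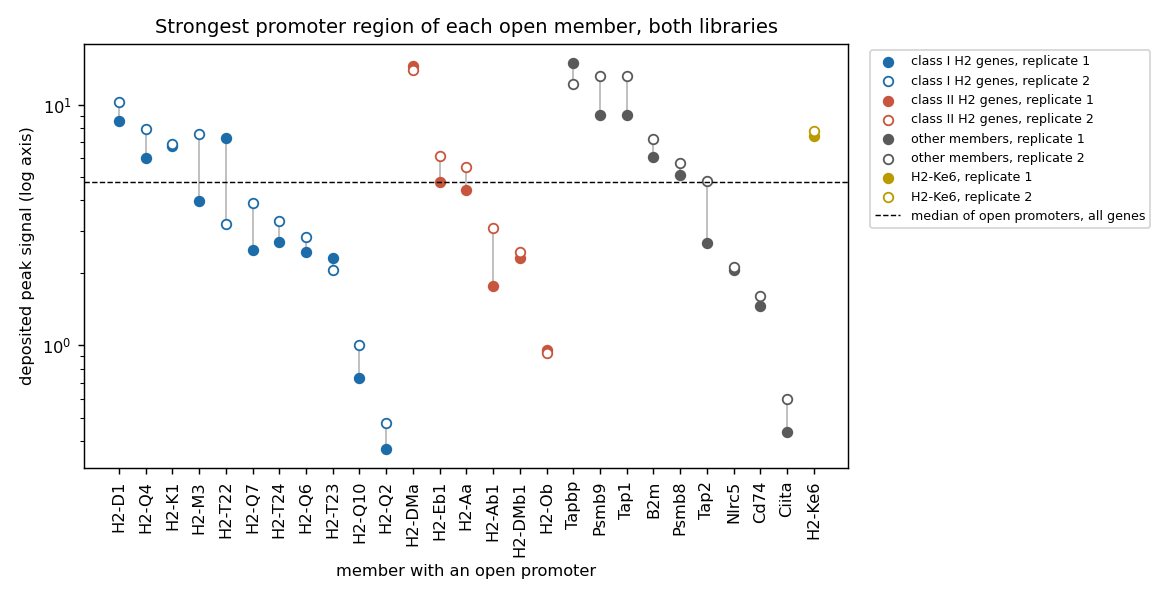
Deposited peak signal (log axis) of the strongest promoter region of the 27 genes with an open promoter, with filled points for replicate 1 and open points for replicate 2, grouped as class I, class II, other genes and H2-Ke6. The dashed line is the median of open promoters over all genes, 4.78. H2-DMa, Tapbp and the region shared by Psmb9 and Tap1 stand above it, and Ciita and H2-Q2 are the lowest.

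The genes that load class I molecules were all open, 6 of 6, with a median signal of 8.87 per gene. The region that Tap1 and Psmb9 share enters this median under both names. Counted a single time, it would leave B2m, with a mean of 6.60, in the middle. Tapbp codes for tapasin, which holds empty class I molecules at the transporter. Its region had a signal of 14.9 and 12.2, and it also lay in the promoter window of the neighbouring gene Zbtb22. A further region at an inner start of Tapbp, at the start that RefSeq lists, had 5.56 and 4.87. Tap1, a chain of the peptide transporter, and Psmb9, a catalytic subunit of the immunoproteasome, are transcribed away from each other and shared a region of 9.10 and 13.2. Psmb8, another immunoproteasome subunit, had 5.11 and 5.74. B2m had 6.04 and 7.17, a mean of 6.60 ± 0.802 (SD, n = 2). Tap2, the other transporter chain, had 2.66 and 4.83 in a region whose centre lay 401 bases downstream of the nearest annotated start.

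Both classical class I genes, whose products present peptides to CD8 T cells, were open at a level above the median of all open promoters. H2-D1 had 8.57 and 10.3, and H2-K1 had 6.76 and 6.87. The H2-D1 region was centred 271 bases downstream of the GENCODE start but -93 bases from the RefSeq start (negative values lie upstream), and the H2-K1 region lay -24 bases from both.

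The Q, T and M genes are the nonclassical class I genes, whose products are less variable and often serve other receptors. In the Q family 5 of 6 genes were open. H2-Q4 was the strongest with 6.01 and 7.95. H2-Q7 and H2-Q6, which both code for the Qa-2 antigen, had 2.49 and 3.90, and 2.44 and 2.81. H2-Q10, known as the gene of a secreted class I molecule of liver, had 0.736 and 1.01, and H2-Q2 had 0.372 and 0.475, the weakest open class I promoter. The region of H2-Q10 was centred 592 bases downstream of the nearest start and that of H2-Q2 709 bases downstream. H2-Q2 also had a weaker region, -12 bases from its start, with 0.372 and 0.250. Neither gene had a footprint of both libraries in its promoter window. H2-Q1 had no peak.

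In the T family 3 of 4 genes were open. H2-T22, whose product is a ligand of some gamma delta T cells, had 7.28 and 3.19, and its region also lay in the promoter window of Gm6034. H2-T24 had 2.70 and 3.30. H2-T23, which codes for Qa-1, a ligand of the inhibitory receptor CD94/NKG2A, had 2.30 and 2.06. H2-T3, the gene of the thymus leukaemia antigen, had no peak. Among the M genes H2-M3, whose product presents peptides with a formylated first residue, had 3.99 and 7.58. The other 11, namely H2-M1, H2-M2, H2-M5, H2-M9, H2-M11 and H2-M10.1 to H2-M10.6, were not open. H2-M10.4 had a peak in replicate 2 alone, with 21 bases under the FDR limit. The remaining 10 had no base listed in either library. The M10 genes are known for expression in the vomeronasal organ.

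Class II promoters spanned a wide range of signals. Of the 4 genes for antigen-binding chains, 3 were open. H2-Eb1, the beta chain of the I-E molecule, had 4.77 and 6.12. H2-Aa and H2-Ab1, the alpha and beta chains of I-A, had 4.42 and 5.51, and 1.76 and 3.07. H2-Eb2 had no peak. Of the 5 accessory genes, 3 were open. H2-DM exchanges peptides on class II molecules in the endosome, and H2-O inhibits it. H2-DMa had 14.5 and 14.0, the highest of the H2 genes, H2-DMb1 had 2.30 and 2.43, and H2-Ob had 0.959 and 0.934. H2-Oa and H2-DMb2 were not open, and H2-DMb2 had 21 bases under the FDR limit in replicate 1 alone. The strong H2-DMa region lay at an inner start of the gene, 12629 bases downstream of its most upstream protein-coding start. It was centred 9943 bases downstream of the nearest RefSeq start, so its rank among the H2 genes rests on the GENCODE starts. At that most upstream protein-coding start a further region of 7.71 and 9.60 was shared with Brd2, a gene of a bromodomain protein. Non-coding transcripts of H2-DMa begin further upstream still, from position 34119541 on.

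The regulators stood at the low end. Nlrc5, the transactivator of class I genes, had 2.05 and 2.11, and 24.7% of open promoters in the genome were as weak or weaker. Ciita, the transactivator of class II genes, had 0.438 and 0.600, and 4.38% were as weak or weaker. The Ciita region lay at an inner start, 9673 bases downstream of the most upstream of its 6 annotated starts, held no footprint of both libraries and was absent from the shorter lists. Cd74, which codes for the invariant chain that escorts class II molecules, had 1.46 and 1.61. H2-Ke6, which has no known part in antigen presentation, had 7.42 and 7.79. Of 13 leukocyte marker genes, among them Ptprc, Spi1, Itgam and Csf1r, 0 were open, although Flt3 and Itgax had a peak in replicate 2 alone and 9 of the 13 had a shared region outside promoters, a share near the 72.4% of all genes. Of 12 nephron epithelium markers 11 were open, all but Aqp2, which had a peak in replicate 1 alone, and all 6 endothelium markers were open. Over all protein-coding genes the share open was 63.0%. The part of leukocytes in the class II, Cd74 and Ciita signals was not tested.

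The libraries were compared at each open promoter. At the strongest region of the 27 open genes, the log2 ratio of replicate 2 to replicate 1 had a median of 0.26, and 22 of 27 were higher in replicate 2. Over all 19360 promoter regions the median was 0.14, and 64.0% were higher in replicate 2. H2-T22 was the widest case at -1.19, below the range of -0.96 to 1.15, which runs from the 5th to the 95th percentile of all shared regions. H2-M3 followed at 0.92 and Tap2 at 0.86, inside that range but above the -0.53 to 0.83 of promoter regions alone.

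On chromosome 17 the genes fall into blocks that differed in the density and signal of shared regions. The K block, from Tapbp to H2-Ke6, spans 112 kb and had 17.8 shared regions per 100 kb. The class II block, from H2-Oa to H2-Eb2, spans 249 kb and had 16.1. The T block had 9.75 over 185 kb and the D-Q block had 6.14 over 212 kb. The M block had 3.25 over 1199 kb, close to the 3.67 of all chromosomes. Of the other protein-coding genes inside the blocks, 8 of 8 were open in the K block, 1 of 1 in the class II block, 4 of 5 in the T block and 8 of 33 in the M block. The median signal of a region was 3.32 in the K block, 2.39 in the class II block, 1.49 in the T block, 1.21 in the D-Q block and 1.05 in the M block, against 1.04 over all regions. Promoter regions were 12 of the 20 shared regions in the K block and 15 of 40 in the class II block. They were 7 of 18 in the T block, 8 of 13 in the D-Q block and 11 of 39 in the M block. Over all chromosomes they were 19360 of 96735. Protein-coding genes numbered 11 in the K block, 14 in class II, 9 in T, 7 in D-Q and 45 in M. The part of promoter share and gene density in these values was not tested.

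**Figure D2:**
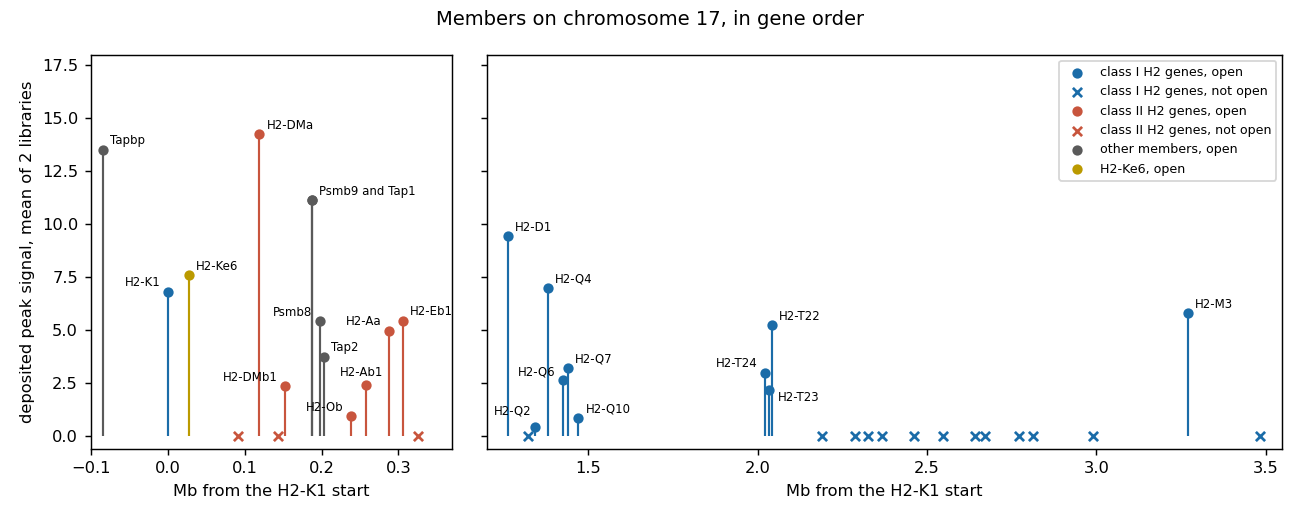
Mean deposited peak signal of the 2 libraries at the promoters of the 39 genes on chromosome 17, against distance from the start of H2-K1 in Mb, with a gap in the axis between the panels. Dots are open promoters and crosses are promoters that were not open, drawn at 0. The left panel holds the K and class II blocks, the right panel the D-Q, T and M blocks, where H2-M3 is the only dot among 12 M genes.

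Sequence shared between class I genes limits how well reads can be placed there. A stretch of 32 bases was called unique if it occurs once in the reference, and the share of such stretches was taken over each promoter window. The median share was 85.7% for class I genes and 100% for class II genes, against 99.6% for all genes. H2-Q6 had 26.3%, H2-Q7 had 37.4% and H2-T23 had 42.1%. The signals and footprints of these 3 genes are uncertain, since reads of a near-identical copy may have been left out or counted at the wrong gene. The 11 open class I genes had a median of 70.1%, and the 13 that were not open had 90.2%. The D-Q block held 48.1% unique stretches and the T block 51.5%, against 87.5% in the class II block. Reads from the CAST/EiJ chromosomes may also map less well in genes as variable as these. The part of mapping in the signals was not tested.

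**Figure D3:**
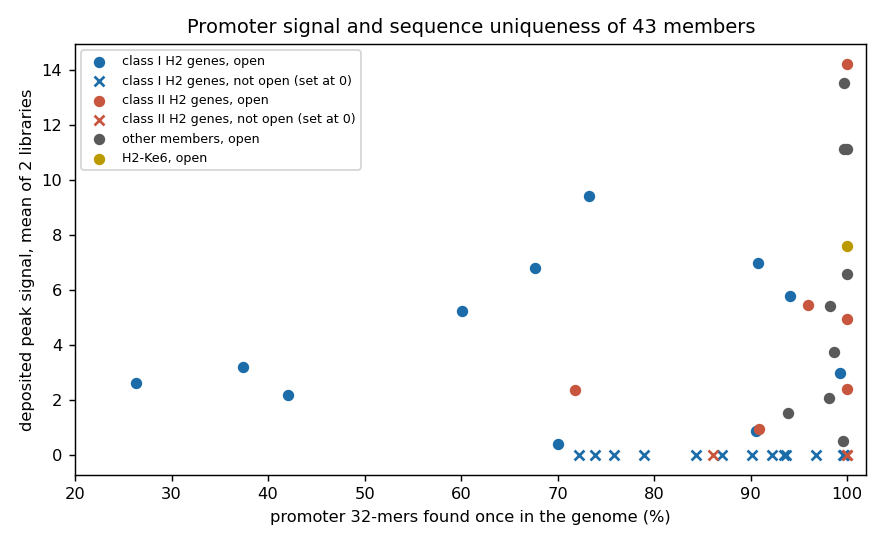
Mean deposited peak signal of the 2 libraries against the percent of 32-base stretches of the promoter windows that occur once in the genome, for all 43 genes. Crosses are promoters that were not open, set at 0. The 3 genes under 50% were open with means of 2.18 to 3.20, and the crosses lie at 72.2% and above.

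CpG content differed between the groups. The ratio of observed to expected CpG had a median of 0.284 in class I and 0.165 in class II windows, against 0.446 in the 9 other genes and 0.511 in all genes. Within class I the ratio was 0.164 for the M genes and 0.503 for the others, near that of all genes, with 0.649 for the Q genes.

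The footprints fell on the conserved elements in several of the sequences shown above. Motifs were searched on both strands in windows of 300 bases centred on the strongest region of each open gene. These were 26 regions, because Tap1 and Psmb9 share theirs. Windows of the same length on all 19360 promoter regions were searched too. Those include the weaker regions of genes with several, so all motif shares set the strongest member regions beside regions of any strength. The part of this difference in the shares was not tested. The letters were CCAAT for the Y box, TGACG for the core of a cyclic AMP response element (CRE), which is also the X2 box, and CNNNGCAAC for the X box. A match is a description and not a binding site, and a lack of matches says only that these letters are not in the window. The Y box was found in 20 of the 26 regions (76.9%), against 33.9% of all promoter regions. It stood in 9 of 11 class I, 6 of 6 class II and 5 of 9 other genes. The CRE core was found in 11 regions (42.3%), against 28.1%, and stood in 7 of 11 class I, 1 of 6 class II and 4 of 9 other genes. The windows follow the regions and not the starts, so some matches lie well inside a gene. In H2-Q10 the Y box was centred 463 bases and the CRE core 610 bases downstream of the nearest start. The promoters of H2-K1, H2-D1, H2-Q4, H2-Q6 and H2-Q7 resemble each other in sequence, as given at the end. Their matches are therefore not independent of each other.

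Of the 7 class I genes with a CRE core, 4 had it wholly inside footprints of both libraries. H2-Q7 is among the 4, and its footprints are uncertain because few stretches of its promoter are unique. In the printed sequences of H2-K1 and H2-D1 it stands at bases 93 to 97, counted from the 5′ end, inside the footprinted runs GGACACTGTTGACGCGCAGTCAGC and CTGCCGGGACACTGATGACGCGCTGGCAGG. B2m has it at bases 89 to 93, inside GCTAGGAGACTGGTGACGACCTCCGGAT, and Tap1 at bases 170 to 174, inside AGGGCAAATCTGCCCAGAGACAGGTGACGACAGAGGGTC. Of the 11 member regions with a CRE core, 8 (72.7%) had it wholly inside footprints of both libraries, at the 9 genes B2m, H2-Aa, H2-D1, H2-K1, H2-M3, H2-Q7, Psmb8, Psmb9 and Tap1. Over all promoter regions with a CRE core the share was 26.6%. The Y box lay wholly inside such footprints in 5 of 20 regions (25%), at H2-Aa, H2-DMa, H2-Eb1, H2-K1 and H2-M3, against 15.4% of all promoter regions with a match. Both comparisons set the strongest region of each gene beside promoter regions of any strength, and the part of strength was not tested. In H2-D1 neither Y box was in a run of both libraries, and in H2-K1 the Y box at bases 118 to 122 was and that at bases 142 to 146 was not.

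**Figure D4:**
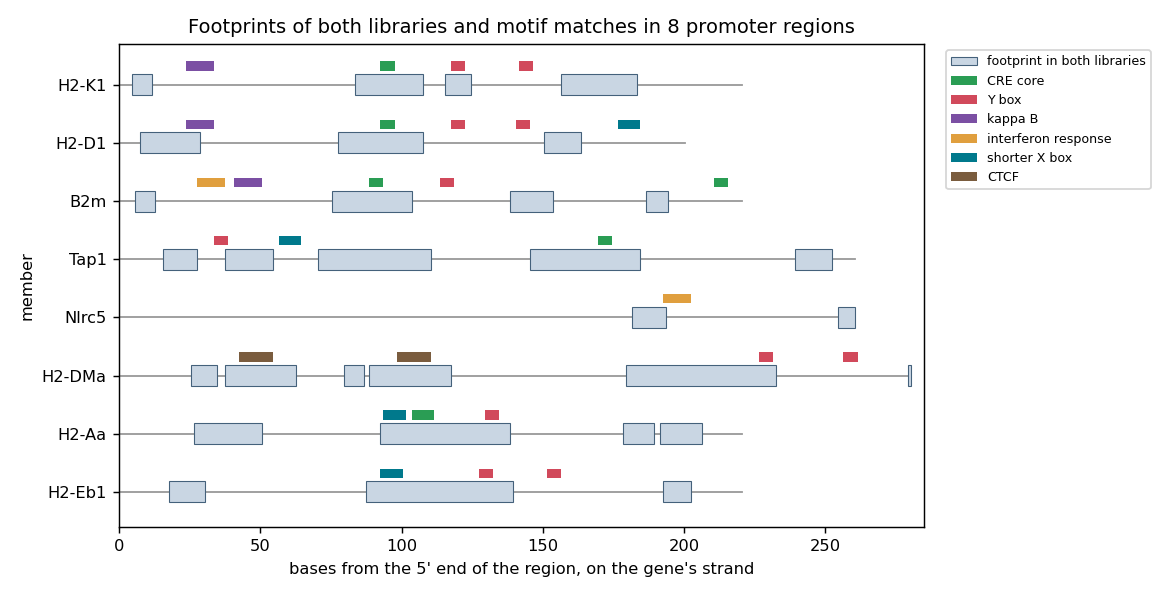
Positions of footprints of both libraries (boxes on the line) and of motif matches (coloured bars above it) in the 8 printed promoter regions, in bases from the 5′ end on the strand of the gene. In H2-K1, H2-D1 and B2m a box covers the CRE core. In H2-Aa and H2-Eb1 a single box runs from the shorter X box to the Y box.

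H2-Eb1, H2-Aa and H2-DMa held long footprints. In H2-Eb1 a run of 52 bases, from base 88 to base 139, covered an X box variant, ctagcaac, and a Y box. In H2-Aa a run of 46 bases, from base 93 to base 138, covered the variant ctggcaac, the CRE palindrome next to it and a Y box. Each run came from a single footprint in each library, of 52 and 56 bases in H2-Eb1 and of 47 and 51 bases in H2-Aa. H2-DMa had the longest, 53 bases with a Y box at its 3′ end, from footprints of 53 and 58 bases. Over the 58053 such runs in all promoter regions the median was 11 bases, and 0.277% were as long as that of H2-Eb1, 0.994% as that of H2-Aa and 0.233% as that of H2-DMa. The longest run per gene had a median of 18.5 bases in class I, where 0 of 11 genes reached 40 bases and H2-Q2 had no run, of 38.5 bases in class II, where 3 of 6 did, and of 33 bases in the other genes, where Tap1, Psmb9 and Tap2, 3 of 9, did. The run of Tap1 and Psmb9 is the same one. Of all runs in promoter regions, 2.95% reached 40 bases. This and the other shares of runs given here are over single runs, while a gene's longest is picked from its runs. The share of all promoter regions whose longest run reaches 40 bases was not computed, so the counts of genes have no like figure beside them. H2-Ab1, also a classical class II gene, had a longest run of 26 bases, and 13.8% of runs were as long. Runs depend on what the caller treats as a single footprint, and the authors set that level at 0.01 for all.

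The letters fixed for the X box missed both of these sites. They were in 3 of 26 regions (11.5%), against 14.5% of all promoter regions. The X box followed by a Y box 10 to 40 bases on was in H2-Ob alone (3.85%), against 0.635%. With the shorter letters CNNGCAAC, chosen after the sequences were seen, the X box was in 7 regions (26.9%), against 12.9%, and the joint module in 3 (11.5%), against 0.444%. The 3 were H2-Aa, H2-Eb1 and H2-Ob, all class II. The shorter letters were set with the H2-Aa and H2-Eb1 sites in view, so their shares are no measure of enrichment. The module lay wholly in footprints of both libraries in H2-Aa and H2-Eb1 and in part in H2-Ob.

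Letters of immune signalling elements were searched in the same windows. The interferon response letters, GAAA, any 2 bases and GAAA again, bound by interferon regulatory factors, were in 8 of 26 regions (30.8%), against 2.65% of all promoter regions. The genes were H2-Q2, H2-T22, H2-T23 and H2-T24 in class I, and B2m, Ciita, Nlrc5 and Tap2, with 0 of 6 in class II. The match of H2-Q2 was centred 744 bases downstream of the nearest start, and those of Tap2 269 and 426 bases downstream. Letters bound by NF-kappa B, GGGAN followed by TTTCC or GGGAT followed by TCCCC, were in 5 regions (19.2%), against 0.558%, at H2-D1, H2-K1, H2-Q6, B2m and Cd74. H2-K1 and H2-D1 carry them at the same place, bases 24 to 33. The promoters of H2-K1, H2-D1 and H2-Q6 resemble each other, so their matches are not independent. In 0 of 8 and 0 of 5 regions did such a match lie wholly inside footprints of both libraries. Such cases were rare everywhere, at 2.53% of all matching promoter regions for the interferon letters and 2.78% for the NF-kappa B letters, so these counts are too small to set the genes apart. A part of the match was footprinted at H2-T22 and Nlrc5 and at H2-D1. In Nlrc5 the run TCAGTGGCCACT ended on the first base of the interferon letters.

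Other promoter letters were searched in the same way. The GC box GGGCGG was in 10 of 26 regions (38.5%), against 60.4%. The NRF1 letters, GCGCA followed by NGCGC, were in 0, against 7.73%, and the PU.1 letters GAGGAAGT, a site of a myeloid and B cell factor, were in 0, against 2.43%. The letters of CTCF, a factor of chromatin boundaries, were in H2-DMa alone (3.85%), against 6.61%, and stood there at bases 43 to 54 and 99 to 110, both inside footprints. The HNF4 and GAS letters were in 0, against 0.687% and 1.26%, AP-1 letters were in 1 (3.85%), against 4.71%, and E boxes in 2 (7.69%), against 9.69%. At 26 regions a count of 0 to 2 is close to what the low shares over all promoter regions give.

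**Figure D5:**
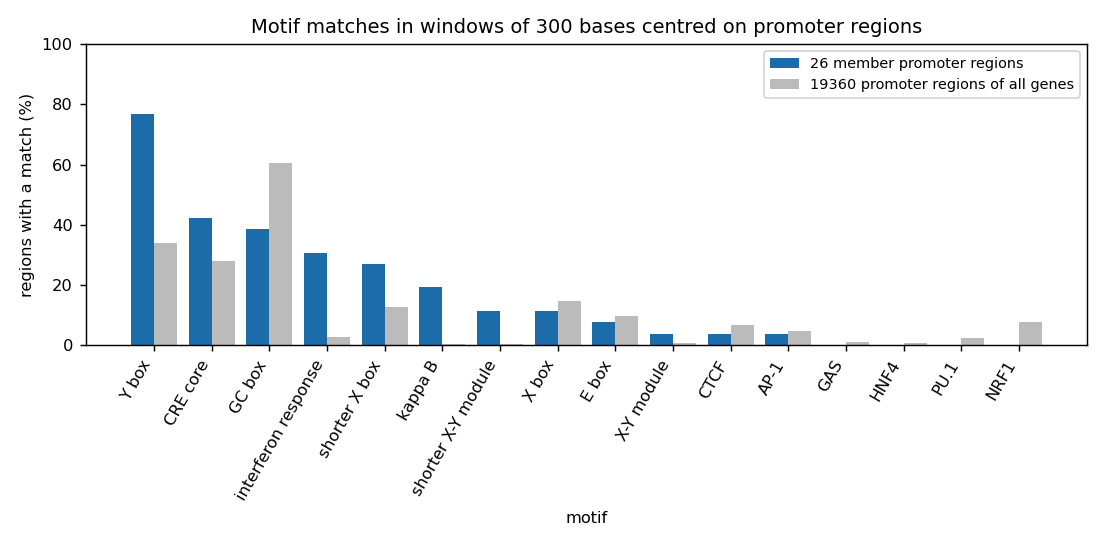
Percent of windows of 300 bases that hold each motif on either strand. Shown are the 26 member regions, the strongest of each open gene (blue, left), and all 19360 promoter regions, of any strength (grey, right). The Y box stands at 76.9% against 33.9%, the interferon response letters at 30.8% against 2.65%, and the GC box at 38.5% against 60.4%.

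Away from promoters, 32 of the 43 genes had at least 1 shared region in the gene or within 10 kb of it, against 72.4% of all genes. The median was 1 region for class I and 3 for class II genes, against 2 for all genes, and all 9 class II genes had at least 1, also the 3 whose promoter was not open. Nlrc5 had 8 such regions, H2-T24 had 7, and Ciita and H2-DMa had 6 each. There were 73 regions in all, with a median signal of 1.48, against 0.918 over all 77375 regions outside promoters. Footprints of both libraries lay in 60 of the 73 (82.2%), against 63.2%. The 73 lie in a gene or within 10 kb of it by choice, while the 77375 lie at any distance from genes. These comparisons are therefore between unlike sets. By class, 18 of the 24 regions in reach of class I genes had one, and 20 of the 21 in reach of class II genes did.

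The strongest region outside promoters lay downstream of H2-T24 at chr17:35997061-35997300, with 10.6 and 18.5, 16945 bases from Prr3, the gene with the nearest start. H2-D1 had a region -4389 bases from its start at chr17:35258241-35258440, with 7.28 and 12.3, and another at chr17:35274861-35275060 with 2.29 and 5.47. A region at chr17:34101601-34101780, beyond the 3′ end of H2-Oa, had 3.44 and 8.25. Beyond the 3′ end of Tap2, chr17:34218661-34218960 had 5.38 and 5.56. Tapbp had an intronic region at chr17:33920821-33921040, with 2.41 and 4.61. Upstream of H2-Eb1, -916 bases from its start, chr17:34304841-34305060 had 3.37 and 3.46 and held 5 footprints of both libraries.

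The other 3 of the 10 strongest lay in sequence that the annotation gives to both H2-DMa and Brd2. They were chr17:34119261-34119640 with 13.9 and 12.1, chr17:34120881-34121200 with 3.54 and 5.12, and chr17:34120401-34120580 with 3.25 and 3.56, all over exons and all nearest to a start of Brd2. The first of them covers the 5′ end of the H2-DMa annotation at 34119541, where only non-coding transcripts begin, so it is not counted as a promoter. Which gene such a region serves was not measured. In replicate 2 the regions near H2-T24, H2-D1 and H2-Oa were higher than in replicate 1, and those near Tap2 and H2-Eb1 had close values in both.

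The rest of the pathway, from lists of further genes, was largely open, where 63.0% of all protein-coding genes were open. Of 9 further class I loading genes 9 were open. The highest were the chaperones Calr, with 24.4 and 15.5, and Canx, with 15.4 and 15.3, and Psme2, a subunit of the proteasome activator, with 13.3 and 10.0. Psmb10, the remaining catalytic subunit of the immunoproteasome, had 0.744 and 0.884. All 6 class I-like genes outside the H2- names were open, led by Fcgrt, the neonatal Fc receptor, with 11.5 and 8.95. Of the 3 class II proteases matched, Lgmn had 14.8 and 15.3 and Ctsl had 7.01 and 9.20, while Ctss, which trims the invariant chain in antigen-presenting cells, had no peak. All 16 genes of interferon signalling and of the factors on the X and Y boxes were open. Ifngr1, a chain of the interferon gamma receptor, had 20.9 and 21.8, Nfya, a subunit of NF-Y, had 19.6 and 19.9, and Rfxank, a subunit of RFX, had 19.4 and 17.9. The weakest was Ifngr2, the other chain of that receptor, with 0.752 and 1.28, which was not open in the shorter lists. In those lists 7 of the 9 further class I loading genes, 5 of the 6 class I-like genes and 15 of these 16 were open. The share of all genes there was 58.9%.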

How the data were processed

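The authors deposited, for each library, 2 peak lists, a list of footprints and a list of runs of bases with an FDR, all on mm10 and made per library without pooling, per the file headers. Which aligner and callers made them, and in which versions, is not given in the sources used here. The peak signal was deposited by the authors, in a unit that is not stated. In both libraries 100% of signals were whole multiples of a step, within 0.05 steps. The FDR file gives a q-value of at most 0.05 for runs of bases, and the footprint file carries a constant p-value or q-value level of 0.01, as deposited by the authors.

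Starts, genes and sequence came from GENCODE M21 and GRCm38.p6, and RefSeq starts served as an alternative. Genes were keyed by identifier. Shared regions, promoter calls, motif searches and the count of unique 32-base stretches were computed with Python 3.11.15, numpy 2.4.6, pandas 2.3.3 and scipy 1.17.1, and promoter alignments with Biopython 1.88. The joining of peaks was tested on simulated data. Regions outside all promoter windows were counted in each gene with 10 kb added on both sides. Groups are described by counts and medians, and no test was made. Intervals are exact Poisson intervals at the 95% level.

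The genes, the lists of further genes and the motifs were chosen with earlier results of these data known. Values were to be given for all open promoters, for the 9 genes outside the H2- names, for the classical genes, for the 10 strongest regions outside promoters, and for the strongest of each list of further genes. Of the further class II genes, Ifi30 was not matched to a protein-coding gene and is not analysed here, and 1 leukocyte marker is not reported here. Alternatives changed the promoter window, peak list, overlap, start set, flank and library, and their effects are given at the end.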

Additional observations from a re-analysis of the deposited data

How the results depend on the processing

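Of 95 values recomputed under alternatives, 63 moved by less than the spread between the libraries or stayed within 1.5 times the count, and 32 moved further. The count of open class I promoters ranged from 8 to 12 and that of class II promoters from 5 to 6. The 5 for class II came with RefSeq starts, where H2-Ab1 had no start. H2-M10.4 was open only without replicate 1. Ciita and H2-Q2 were lost in the shorter lists and with an overlap of at least 50% of both peaks. Both were lost with the stronger 50% of peaks, as was H2-Q10. Ciita and Tap2 were lost with the most upstream start alone. A window of 100 bases lost Tap2, H2-D1, H2-Q10 and H2-T24. With regions at the starts of genes that are no members left out (chosen after seeing the data), H2-T22 was lost. With RefSeq starts (also chosen after seeing the data) 5 of the 9 other genes were open, and the table lists a start for 5 of them.

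The percent of all genes with an open promoter was 59.3 with a window of 100 bases, 67.4 with 2000 bases, 58.9 in the shorter lists, 56.5 with the stronger 50% of peaks, 59.0 with the most upstream start, 59.2 with an overlap of at least 50%, 66.4 among genes with at least 50% unique stretches and 63.4 with RefSeq starts. With a replicate left out it was 64.5 to 65.1.

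The median signal of open class I promoters was 4.22 with a window of 100 bases, in the shorter lists, with an overlap of at least 50% and with RefSeq starts, 5.23 with the stronger 50% of peaks and 5.51 among genes with at least 50% unique stretches, and 2.70 to 3.24 with a replicate left out. The genes that a setting lost, as named above, no longer enter its median. The set with at least 50% unique stretches leaves out H2-Q6, H2-Q7 and H2-T23. Among the open genes, the RefSeq set leaves out H2-T24 in class I and H2-Ab1 in class II, which had no start there. No other cause of a shift was tested. For class II it was 4.96 with RefSeq starts and 3.36 to 4.29 with a replicate left out. The class II median was 3.69 in the shorter lists and with the stronger 50% of peaks, below that of class I.

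The median number of regions outside promoters was 0 for class I, 1 for class II and 1 for all genes in the gene body alone, and 4, 11 and 6 with a flank of 50 kb. It was 2 for class II and 1 for all genes in the shorter lists, and 0, 2 and 1 with the stronger 50% of peaks. With a replicate left out it was 3 to 4 for class II and 2 to 3 for all genes. No paired analysis was possible because there is a single group. The depth behind each signal is inferred, and a promoter without a peak was not detectable as open at this depth.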

Other observations

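The promoters of H2-K1, H2-D1, H2-Q4, H2-Q6, H2-Q7 and H2-Q10 resembled each other, while those of H2-Q2, H2-T22, H2-T23 and H2-M3 aligned with them over fewer columns or at lower identity. RefSeq lists a promoter for 10 of the 11 genes, from 250 bases before to 50 bases after the start, and 16 of the 45 pairs aligned over 200 columns or more. H2-Q6 and H2-Q7 were 97.3% identical over 261 columns, H2-K1 and H2-D1 were 90.4% identical over 228, and H2-D1 and H2-Q10 were 84.1% identical over 302. In that last pair the signals were 8.57 and 10.3 at H2-D1, and 0.736 and 1.01 at H2-Q10. The H2-Q10 region was centred 592 bases downstream of the RefSeq start, outside the aligned sequence, so these signals do not compare the aligned promoters. H2-M3, the only open M gene, aligned over 232 columns with H2-Q4 at 63.8% identity.

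Across the genome, 140 of the 1347 protein-coding genes whose promoter window held under 50% unique stretches were open. All 3 such members, H2-Q6, H2-Q7 and H2-T23, were open.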
